A study of Mus musculus with 2 samples.

Results

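Progenitors II are a population of non-dividing progenitors in mouse ependymal cultures, chosen here by the name that the authors' deposited cell metadata gives each cell. The name covers 2512 of the 16401 deposited cells, 1765 in replicate 1 and 747 in replicate 2. They made up 14.7% of replicate 1 (exact Clopper-Pearson 95% interval 14.0 to 15.3) and 17.1% of replicate 2 (16.0 to 18.2). Ependymal cells are multiciliated cells that cover the walls of the brain ventricles. Their progenitors were dissociated from newborn (P0 to P2) lateral ventricular walls, grown to confluence in primary culture and then kept for 2 days in serum-free medium, after which droplet single-cell RNA sequencing was done. The study has 1 group of 2 libraries and no other condition. Replicate 1 is of genotype C57BL/6N, replicate 2 of genotype C57BL/6J, and the labels do not say how many animals or litters each culture held. The comparisons are therefore between named populations inside the same libraries.

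A multiciliated cell builds many basal bodies at once, mostly on deuterosomes, which are ring-like platforms for centriole assembly. The coiled-coil proteins Gmnc and Mcidas, relatives of geminin, start this programme together with E2F and Dp proteins. Gmnc acts upstream of Mcidas and of the transcription factor Trp73 (p73), and Foxj1 and the RFX factors then drive the genes of motile cilia. In the brain, ependymal cells arise from radial glia that have left the cell cycle, and the deuterosomal stages are the phase in which centrioles are amplified.

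Levels below are CPM, the UMIs of a gene per 1000000 UMIs summed over all cells of a population in a library, given for replicate 1 and then replicate 2. Progenitors II had a median of 10184 and 12434 UMIs per cell, progenitors I had 10490 and 13127.5, and early deuterosomal cells had 11585 and 14575.5. The whole libraries held 173510950 and 70611931 UMIs. Differences are log2 fold changes ± SE from 1 edgeR fit over 13 populations in both libraries, with p adjusted over 15877 genes. Since the authors presumably named the populations from this same expression, an adjusted p sets a difference against the spread left between the 2 libraries and is no independent evidence for it. The fit estimates this spread for each gene over all 13 populations. An SE can therefore be wide for a gene whose difference was similar in both libraries. In these sums, fewer expressing cells and less RNA per expressing cell cannot be told apart. The libraries shared 13 cell barcodes, and no source used here says how doublets were handled.

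Of 3 genes taken here as markers of a state primed for multiciliation, Gmnc was high in progenitors II. Deup1 and Trp73 were present at a small part of their early deuterosomal level. Gmnc stood at 47.5 and 40.6 CPM in progenitors II, against 21.3 and 16.5 CPM in progenitors I, and the libraries of the groups did not overlap (log2 difference 1.14 ± 0.13, adjusted p = 1.1e-05). Early deuterosomal cells had 29.6 and 27.8 CPM of Gmnc, below progenitors II in both libraries (log2 difference of progenitors II over them 0.64 ± 0.14, adjusted p = 0.00126). Gmnc was lower still in mid deuterosomal cells, at 8.88 and 5.18 CPM, and stood at 36 and 24.6 CPM in multiciliated cells. The cells that the metadata leaves without a name had 49.8 and 48.4 CPM, the one population of the 13 above progenitors II in both libraries. Oligodendrocytes had 0 UMIs of Gmnc in both libraries. Both Gmnc calls needed the library term of the fit, with an adjusted p of 0.0639 against progenitors I and 0.153 against early deuterosomal cells without it.

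Deup1, the core protein of the deuterosome, stood at 33.3 and 27.1 CPM in progenitors II, against 10.8 and 8.73 CPM in progenitors I (log2 difference 1.55 ± 0.22, adjusted p = 0.00038). In early deuterosomal cells it stood at 399 and 413 CPM, so progenitors II were lower by an order of magnitude (log2 difference −3.73 ± 0.21, adjusted p = 4.88e-10). Trp73 had 2.59 and 2.55 CPM in progenitors II, against 1.14 and 0.84 CPM in progenitors I (log2 difference 1.24 ± 0.33, adjusted p = 0.0205). Early deuterosomal cells had 35.2 and 44.7 CPM of Trp73 (log2 difference of progenitors II over them −3.91 ± 0.20, adjusted p = 6.66e-13). The Trp73 call against progenitors I was lost without the library term (adjusted p = 0.17) and after cells were thinned to 5000 UMIs. In the summed counts all 3 marker genes were thus above progenitors I, with the largest difference for Deup1. Gmnc alone was also above early deuterosomal cells.

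Mcidas, the next factor of the cascade, was almost absent from progenitors II. It had 0.977 and 1.13 CPM in them, against 99.1 and 115 CPM in early deuterosomal cells (log2 difference −6.67 ± 0.23, adjusted p = 6.78e-16). Against 0.465 and 0.392 CPM in progenitors I the difference did not pass the test (log2 difference 1.13 ± 0.52, adjusted p = 0.229). Foxn4, a fork head factor of multiciliated cells, had no UMI in progenitors II in either library, and 6.72 and 12.3 CPM in early deuterosomal cells. Over single cells thinned to 5000 UMIs it was seen in 0 of 1657 and 0 of 736 progenitors II cells, which allows a share of cells with a UMI of up to 0.181% and 0.408% at this depth. Early deuterosomal cells showed one in only 2.83% and 6.09% of cells, so the limit does not bound the share of cells that express it.

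Myb, a transcription factor that acts early in multiciliated cells, stood at 44.3 and 44.2 CPM in progenitors II, against 20.1 and 14.9 CPM in progenitors I (log2 difference 1.24 ± 0.26, adjusted p = 0.0105). Early deuterosomal cells had 419 and 486 CPM of it (log2 difference −3.34 ± 0.25, adjusted p = 1.75e-07). Foxj1 was already abundant, at 270.0 and 342 CPM in progenitors II, against 154 and 194 CPM in progenitors I, a difference that did not pass the test (log2 0.73 ± 0.42, adjusted p = 0.38). It stood at 732 and 1152 CPM in early deuterosomal cells (log2 difference −1.59 ± 0.43, adjusted p = 0.0125), where the lower library was above both progenitor II libraries. Rfx2 stood at 33.7 and 36.9 CPM in progenitors II, against 21 and 24.5 CPM in progenitors I (log2 0.56 ± 0.16, adjusted p = 0.032). Rfx3 had 89.7 and 109 CPM in progenitors II, against 89.5 and 105 CPM in early deuterosomal cells, with a log2 difference of 0.05 ± 0.20, adjusted p = 0.884.

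**Figure D1:**
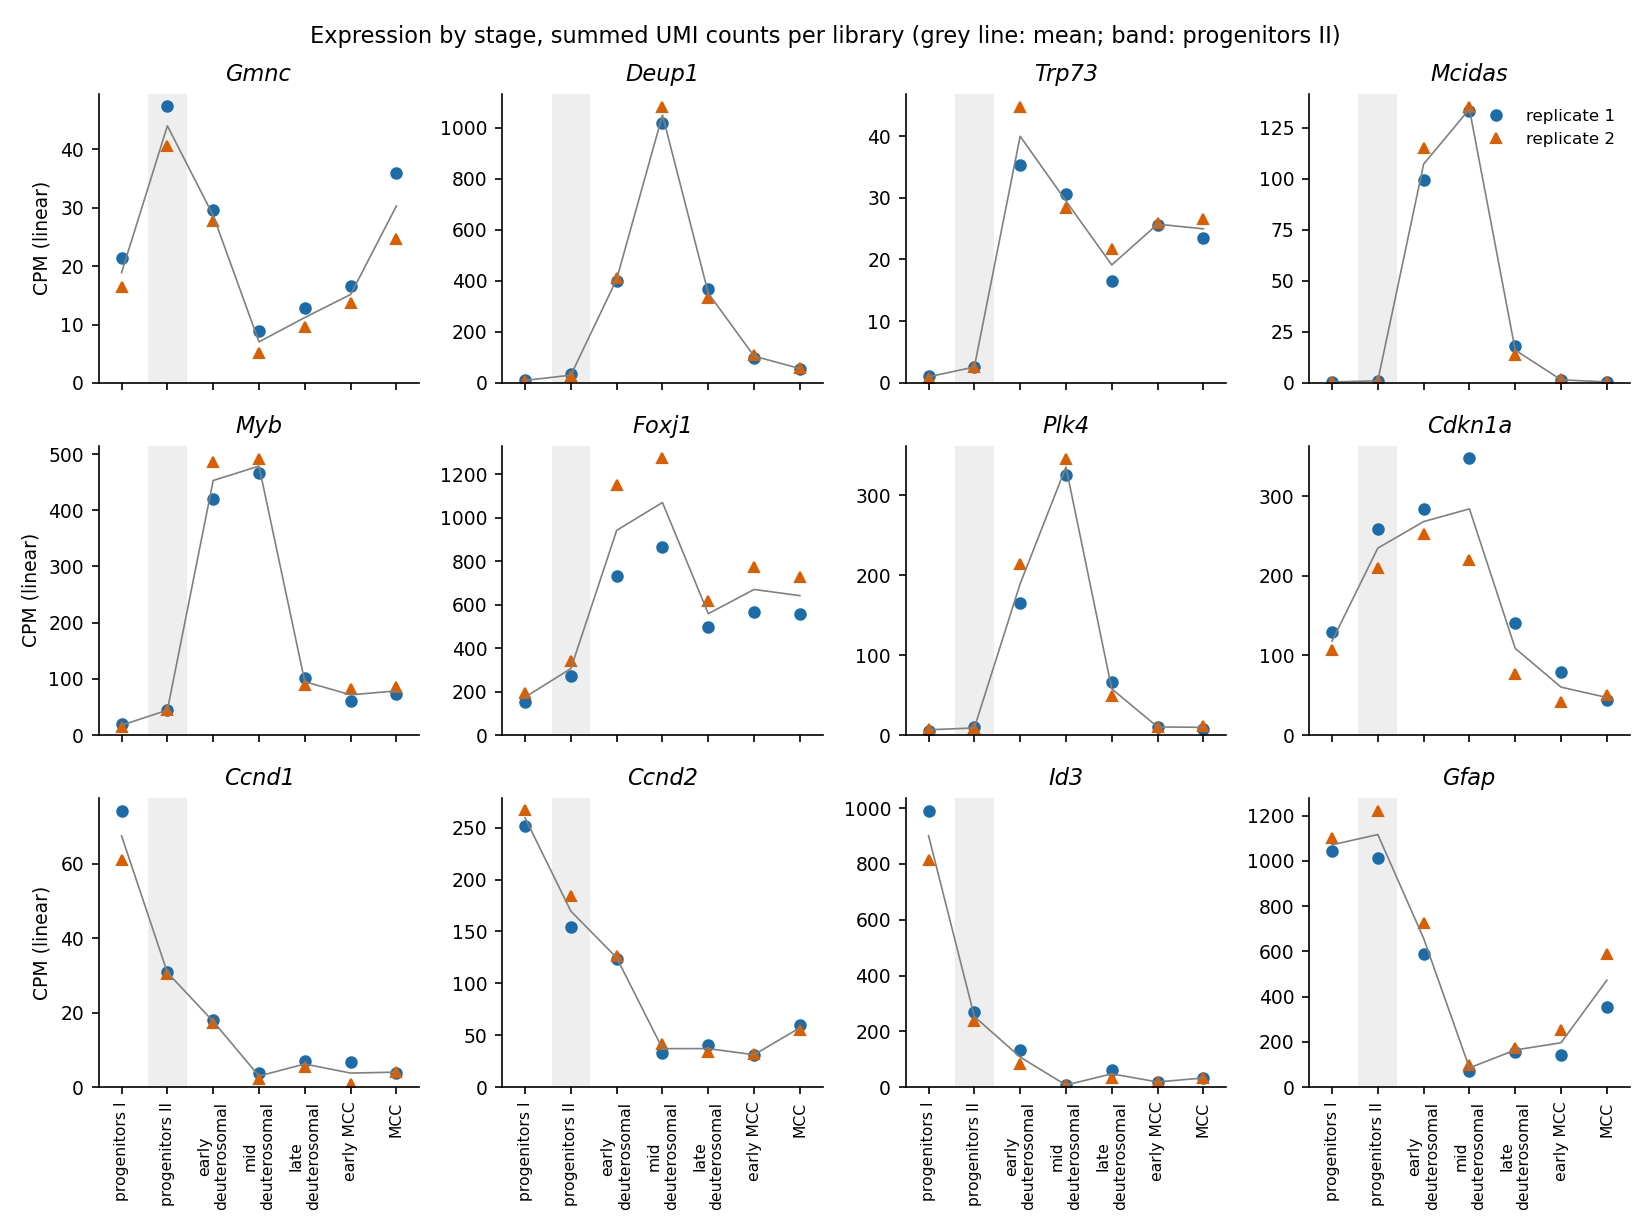
Level of 12 genes by stage, in CPM on a linear axis that starts at 0, with 1 point per library and a grey line through the mean of both. The band marks progenitors II, where Gmnc stood at 47.5 and 40.6 CPM, its highest level along the stages drawn, while Mcidas, Myb, Trp73 and Plk4 were far below their early deuterosomal level.

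The contrast with progenitors I, the other population of non-cycling progenitors, was led by genes of the ciliary shaft. Of 15877 genes, 1139 (7.17%) passed an adjusted p of 0.05, with 706 (4.45%) higher and 433 (2.73%) lower in progenitors II, and the median log2 difference over all genes was 0.01. Without the library term, 81 were higher and 8 lower, and all of these were among the calls above. The list counts below are followed by the count without that term where it was smaller by more than 1.5 times.

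Of 35 axoneme and motility genes tested, 25 were higher in progenitors II and none was lower, with a median log2 difference of 1.48 (1.26 in replicate 1 and 1.56 in replicate 2). Without the library term 8 were higher. Ak7, an adenylate kinase of motile cilia, had the largest difference by the naming rule. It stood at 34 and 34.1 CPM in progenitors II, against 5.9 and 4.87 CPM in progenitors I (log2 2.56 ± 0.41, adjusted p = 0.00207). Hydin, a protein of the central pair of microtubules, had 12.7 and 13.7 CPM in progenitors II, against 2.18 and 2.35 CPM in progenitors I (log2 2.45 ± 0.38, adjusted p = 0.00145). Both libraries of progenitors II were above both of progenitors I for each of these genes.

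Rsph4a, of the radial spoke head, stood at 111 and 128 CPM in progenitors II, against 32.4 and 36.4 CPM in progenitors I (log2 1.71 ± 0.33, adjusted p = 0.00685). The axonemal dynein heavy chain gene Dnah6 had 66.9 and 70.2 CPM in progenitors II, against 21.1 and 20.7 CPM in progenitors I (log2 1.63 ± 0.30, adjusted p = 0.00546). The other dynein heavy chain genes of the list, Dnah5, Dnah9 and Dnah11, had log2 differences of 1.93, 1.11 and 2.00 and passed the test too. Members that did not pass it included Tekt2, a microtubule doublet protein, at a log2 difference of 0.31 ± 0.37, adjusted p = 0.714, and Tmem212 at 0.31 ± 1.24, adjusted p = 0.937.

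Genes outside the list but high on the naming rule were in part ciliary too. Ccdc170, a microtubule-associated protein, stood at 33.7 and 34 CPM in progenitors II, against 9.23 and 6.89 CPM in progenitors I (log2 1.97 ± 0.23, adjusted p = 5.77e-05). Ttc21a, related to the intraflagellar transport protein Ttc21b, had 30.8 and 34.2 CPM in progenitors II, against 8.65 and 10 CPM in progenitors I (log2 1.72 ± 0.24, adjusted p = 0.000254). Wdr66, a protein of the base of the radial spokes, had 43.2 and 64.6 CPM in progenitors II, against 12.1 and 19.4 CPM in progenitors I (log2 1.70 ± 0.20, adjusted p = 3.76e-05). Cfap299, Fam216b, Ccdc113, Cdkl4 and Fam166b made up the rest of the 10 largest increases, with log2 differences of 1.75 to 2.15.

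**Figure D2:**
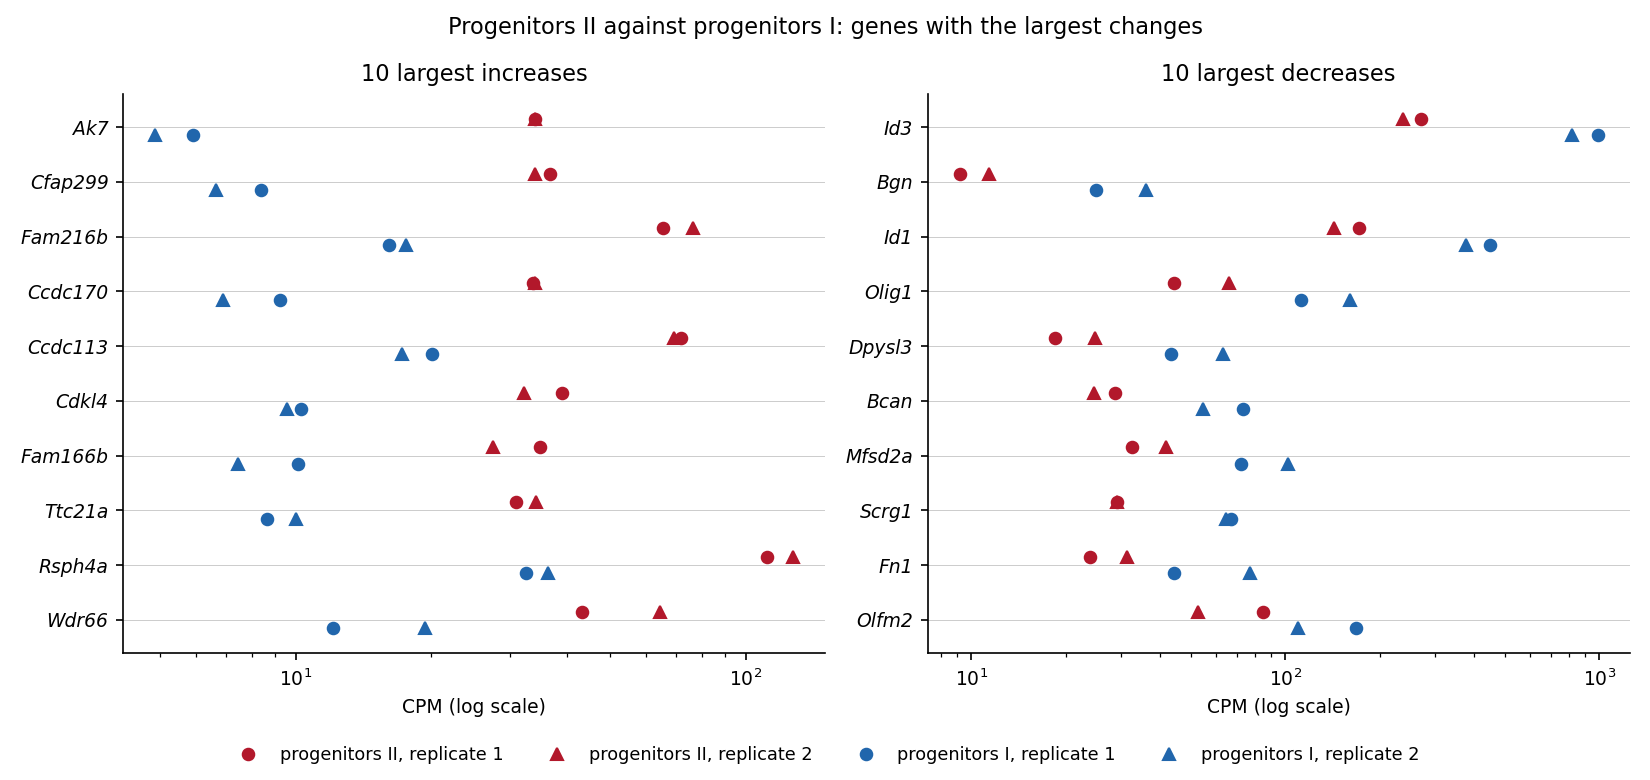
The 10 largest increases and the 10 largest decreases of progenitors II over progenitors I by the naming rule, as CPM per library on a log axis, with progenitors II in red above progenitors I in blue. For every gene drawn both libraries of progenitors II lie on the same side of both libraries of progenitors I, from Ak7 at 34 and 34.1 against 5.9 and 4.87 CPM to Id3 at 270.1 and 236 against 988 and 815 CPM.

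Genes of intraflagellar transport, which carries cargo along the growing cilium, moved the same way by less. Of 26 tested, 11 were higher and none lower, with a median of 0.48. Without the library term no member passed in edgeR, and 7 were higher at an unadjusted p under 0.05. Ift88, a core subunit of the anterograde complex, stood at 44.4 and 50.5 CPM in progenitors II, against 24.6 and 21.7 CPM in progenitors I (log2 0.94 ± 0.15, adjusted p = 0.000208). Of 15 centriole maturation and docking genes 5 were higher and none lower (median 0.39), and 1 was higher without the library term. Cep83, of the distal appendages that dock a centriole to the membrane, had 87.8 and 117 CPM in progenitors II, against 41.9 and 56.4 CPM in progenitors I (log2 0.98 ± 0.11, adjusted p = 6.68e-06).

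Of 20 deuterosome and procentriole assembly genes 5 were higher in progenitors II and none lower, with a median of 0.30, and 1 was higher without the library term. The 5 were Deup1, Cdc20b, Ccp110, Cep135 and Spice1. Cdc20b, a deuterosome-associated relative of Cdc20, stood at only 0.684 and 1.13 CPM in progenitors II, against 0.143 and 0.224 CPM in progenitors I (log2 2.11 ± 0.66, adjusted p = 0.0498), and this call was lost after thinning. Plk4, the kinase that starts each procentriole, had 9.48 and 8.21 CPM in progenitors II, against 5.51 and 7.67 CPM in progenitors I, where the libraries nearly met (log2 0.40 ± 0.25, adjusted p = 0.424). Of the 13 regulators, Gmnc, Trp73, Myb and Rfx2 were higher and none lower (median 0.62), and without the library term none passed, with 4 higher at an unadjusted p under 0.05.

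Promoters of the genes that rose were searched for letters linked to ciliary regulators. The windows are RefSeq promoters of GRCm38.p6, from 250 bases before to 50 after a transcript's start, read on the gene's strand, and 547 of the 706 higher genes had at least 1. The letters below were searched on both strands: GTTGCC, the half-site of RFX factors, the same half-site directly followed by ATGG (the core of an X-box, which contains GTTGCC), and TGTTTAC, a fork head motif. GTTGCC lay in 26.5% of 701 windows of genes higher in progenitors II than in progenitors I, against 13.1% of 15260 windows of all genes tested and 12.5% of all 32851 windows. The X-box core lay in 3.99% of the higher genes' windows, against 0.668% of windows of genes tested and 0.563% of all. TGTTTAC lay in 3.14% of the higher genes' windows, against 2.75% of windows of genes tested and 3.65% of all. In the 32 windows found for 27 genes of the axoneme list the shares were 37.5% for GTTGCC, 6.25% for TGTTTAC and 0% for the X-box core. Most windows of the higher genes held none of the RFX letters. Windows of 1 gene overlap, the shares carry no test, and a match is a run of letters and not a shown binding site.

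Gmnc is printed because it is a marker gene used here, and its first window holds none of these letters. Ccdc170, Ttc21a and Spag6l are printed because they rose by 1.97, 1.72 and 1.66 on the log2 scale and hold a match. Spag6l, a central pair protein with a close copy, Spag6, in the genome, stood at 91 and 81.7 CPM in progenitors II, against 27.3 and 24.5 CPM in progenitors I. Capitals mark GTTGCC, its reverse complement GGCAAC and TGTTTAC. In Ccdc170 the first base of GGCAAC lies 78 bases, and that of TGTTTAC 54 bases, before the start, and in Ttc21a and Spag6l GTTGCC begins 6 and 34 bases after it. The windows are chr16:26991603-26991902 on the minus strand (Gmnc), chr10:4482265-4482564 on the plus strand (Ccdc170), chr9:119937356-119937655 on the plus strand (Ttc21a) and chr16:16829314-16829613 on the minus strand (Spag6l).
Gmnc: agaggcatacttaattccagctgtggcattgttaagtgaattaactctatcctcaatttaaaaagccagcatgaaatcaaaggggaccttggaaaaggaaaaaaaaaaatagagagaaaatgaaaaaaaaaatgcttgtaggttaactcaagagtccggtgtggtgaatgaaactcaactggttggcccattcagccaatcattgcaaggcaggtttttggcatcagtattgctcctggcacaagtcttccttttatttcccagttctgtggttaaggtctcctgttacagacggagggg
Ccdc170: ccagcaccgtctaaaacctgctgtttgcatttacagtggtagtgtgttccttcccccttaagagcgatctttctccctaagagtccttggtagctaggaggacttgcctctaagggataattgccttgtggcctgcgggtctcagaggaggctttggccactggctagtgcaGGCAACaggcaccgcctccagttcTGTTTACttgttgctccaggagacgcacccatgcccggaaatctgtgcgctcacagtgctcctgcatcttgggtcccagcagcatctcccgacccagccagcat
Ttc21a: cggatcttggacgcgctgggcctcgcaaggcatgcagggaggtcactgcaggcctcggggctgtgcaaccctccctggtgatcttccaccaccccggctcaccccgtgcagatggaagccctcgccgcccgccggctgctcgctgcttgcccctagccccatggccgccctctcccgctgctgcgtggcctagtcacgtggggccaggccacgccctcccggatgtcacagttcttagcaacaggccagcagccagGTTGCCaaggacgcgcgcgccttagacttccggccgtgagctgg
Spag6l: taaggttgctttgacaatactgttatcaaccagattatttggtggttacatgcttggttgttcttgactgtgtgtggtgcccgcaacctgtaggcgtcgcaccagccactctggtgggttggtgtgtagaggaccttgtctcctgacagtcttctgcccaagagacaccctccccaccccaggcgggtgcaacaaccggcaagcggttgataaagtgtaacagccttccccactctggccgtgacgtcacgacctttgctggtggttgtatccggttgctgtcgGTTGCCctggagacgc

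Id3 was the largest decrease from progenitors I by the naming rule, and Id1 was also lower. Id proteins bind basic helix-loop-helix factors and keep them off DNA, and Id genes are common targets of BMP signalling. Id3 stood at 270.1 and 236 CPM in progenitors II, against 988 and 815 CPM in progenitors I (log2 −1.91 ± 0.28, adjusted p = 0.00102). Id1 had 172 and 143 CPM in progenitors II, against 449.5 and 375 CPM in progenitors I (log2 −1.47 ± 0.21, adjusted p = 0.000491). Both genes were lower in both libraries without overlap. Of 16 Id and BMP genes tested, 5 were lower (Id1, Id2, Id3, the BMP antagonist Nog and the receptor Bmpr1b) and 1, the signal transducer Smad5, was higher by 0.37, with a median of −0.23. Without the library term 1 was lower.

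Some genes of the extracellular matrix and 2 factors of the oligodendrocyte lineage were lower too. Of 18 matrix and adhesion genes 6 were lower and none higher (median −0.38): Lamb1, Bcan, Fn1, Ncan, Itga6 and Cd44. Fn1, fibronectin, stood at 23.8 and 31.2 CPM in progenitors II, against 44.3 and 77.1 CPM in progenitors I (log2 −1.15 ± 0.26, adjusted p = 0.0162). Biglycan (Bgn) had 9.19 and 11.4 CPM in progenitors II, against 25 and 35.9 CPM in progenitors I (log2 −1.63 ± 0.14, adjusted p = 3.54e-07). The oligodendrocyte lineage factor Olig1 had 44.2 and 66.1 CPM in progenitors II, against 112 and 160.3 CPM in progenitors I (log2 −1.40 ± 0.29, adjusted p = 0.0104), and Olig2 changed by −1.47. Of the 11 genes of that lineage list these were the 2 that passed.

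Of 18 cholesterol synthesis genes, 5 (Nsdhl, Insig1, Fdps, Cyp51 and Idi1) were lower and none higher, with a median of −0.31. None of the matrix, oligodendrocyte and cholesterol calls on these lists was kept without the library term, where 6, 2 and 5 genes were lower at an unadjusted p under 0.05. Among 25 radial glial and astroglial genes the matrix protein gene Tnc (−0.65) and Aldh1l1 (−0.56) were lower and none higher (median −0.21), and neither passed without the library term, where 1 member was lower at an unadjusted p under 0.05. Gfap, an intermediate filament of astroglia, stood at 1011 and 1221 CPM in progenitors II, against 1042 and 1099 CPM in progenitors I, with overlapping libraries (log2 −0.02 ± 0.58, adjusted p = 0.998). The glutamate transporter Slc1a3 differed by −0.21 ± 0.46, adjusted p = 0.873. Neuronal, microglial, Wnt, interferon and mural lists had no member past the edgeR test in either direction, nor with DESeq2. At an unadjusted p under 0.05, 4 neuronal genes and 1 mural gene were lower, and 1 Wnt gene was higher and 1 lower.

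Of 16 Notch pathway genes the target genes Hey2 and Hes5 were lower and none was higher (median −0.28). Neither call was kept without the library term, where 1 member was lower at an unadjusted p under 0.05. Hey2 stood at 4.15 and 4.34 CPM in progenitors II, against 6.69 and 8.79 CPM in progenitors I (log2 −0.91 ± 0.23, adjusted p = 0.0159). Hes5 had 0.0977 and 9.06 CPM in progenitors II, against 0.536 and 22.6 CPM in progenitors I (log2 −1.43 ± 0.33, adjusted p = 0.012). Each library of progenitors II was below its own library of progenitors I, but Hes5 differed far more between the libraries than between the populations. Hes5 was under 1 CPM in both progenitor populations of replicate 1, so few UMIs stand behind its change there. Hes1 differed between the libraries in the same direction, at 19.7 and 96.3 CPM in progenitors II and 26.4 and 116 CPM in progenitors I.

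Progenitors II were out of the cell cycle by the authors' deposited classes. Of 1765 and 747 cells, 1754 and 744 were classed G0 and the other 11 and 3 G1. No cell was in the S, S/G2 or G2/M class, which allows a share of up to 0.170% and 0.402%. Among early deuterosomal cells 21.9% and 26.9% were in one of those classes. Cycling progenitors carry a name of their own, and 66.7% and 64.0% of them were in those classes. Names and classes may therefore not be independent, which was not tested. Of 30 S phase genes 3 were higher and none lower in progenitors II than in progenitors I (median −0.0033), and of 35 G2 and M phase genes 1 was higher (median 0.11). Mki67, a marker of dividing cells, had 2.64 and 3.02 CPM in progenitors II, against 1.18 and 2.41 CPM in progenitors I (log2 0.68 ± 0.76, adjusted p = 0.696).

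Single regulators of G1 differed. Cdkn1a (p21), an inhibitor of cyclin-dependent kinases, stood at 259 and 210.4 CPM in progenitors II, against 129 and 107 CPM in progenitors I (log2 0.91 ± 0.22, adjusted p = 0.0193). Ccnd2, a D-type cyclin, had 155 and 184 CPM in progenitors II, against 252 and 267 CPM in progenitors I (log2 −0.70 ± 0.18, adjusted p = 0.0272). Its relative Ccnd1 had 31.1 and 30.5 CPM in progenitors II, against 74.1 and 61 CPM in progenitors I, a larger difference that missed the threshold (log2 −1.22 ± 0.37, adjusted p = 0.0711). The 2 populations did not overlap for any of these genes.

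A few genes of DNA replication and division were higher in progenitors II, at shares mostly near that over all genes. They were 10.0% of the S phase list, 2.86% of the G2 and M phase list and 5.56% of the E2F, Rb and DREAM list. Of all genes tested, 4.45% were higher. The 3 S phase genes were Cdt1, Lig1 and Pola1, the last 2 by 0.47 and 0.48, and the gene of the G2 and M phase list was Kif11. E2f7, a repressor of the E2F family, stood at 6.74 and 11.3 CPM in progenitors II, against 3.43 and 3.58 CPM in progenitors I (log2 1.20 ± 0.20, adjusted p = 0.000322). The replication licensing factor Cdt1 had 11.8 and 11 CPM in progenitors II, against 6.37 and 6.55 CPM in progenitors I (log2 0.75 ± 0.18, adjusted p = 0.00879). The spindle kinesin Kif11 had 11.2 and 10.4 CPM in progenitors II, against 4.04 and 4.48 CPM in progenitors I (log2 1.28 ± 0.30, adjusted p = 0.0156). E2f7, Cdt1 and Kif11 stayed well under their early deuterosomal levels, where E2f7 had 68.3 and 92.6, Cdt1 57 and 56.9 and Kif11 28.6 and 27.1 CPM. None of the cyclin, inhibitor, replication and division calls against progenitors I was kept without the library term.

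Set against early deuterosomal cells, progenitors II lacked above all the genes of the cell cycle and of procentriole assembly. Of 15877 genes 4991 (31.4%) passed the test, with 2300 (14.5%) higher and 2691 (16.9%) lower in progenitors II, and a median log2 difference of 0.04. Without the library term 512 were higher and 1331 lower. In the G2 and M phase list, 33 of 35 genes were lower and none higher (median −3.22), and without the library term also 33. Cdc20, which activates the anaphase-promoting complex, differed by −4.54 ± 0.21, adjusted p = 2.52e-13 on the log2 scale. Ccnb1, the mitotic cyclin B, stood at 2.64 and 2.36 CPM in progenitors II, against 21.4 and 26 CPM in early deuterosomal cells (log2 −3.17 ± 0.24, adjusted p = 1.67e-10). Of 30 S phase genes 18 were lower and 1 higher (median −1.16).

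Of 20 deuterosome and procentriole assembly genes 18 were lower in progenitors II and none higher (median −1.77), with the same count without the library term. Plk4 stood at 9.48 and 8.21 CPM in progenitors II, against 165 and 214 CPM in early deuterosomal cells (log2 −4.37 ± 0.21, adjusted p = 1.03e-11). Stil, which recruits the cartwheel of a new centriole, had 0.733 and 1.13 CPM in progenitors II, against 33.9 and 47 CPM in early deuterosomal cells (log2 −5.46 ± 0.28, adjusted p = 7.1e-13). Ccno, an atypical cyclin needed for deuterosome formation, had 14.2 and 21.5 CPM in progenitors II, against 222 and 318 CPM in early deuterosomal cells (log2 −3.91 ± 0.28, adjusted p = 1.19e-07). Of the 13 regulators 10 were lower, and Gmnc alone was higher (median −0.74). With cells of the G0 and G1 classes only, 19 deuterosome genes and 30 of 34 genes of G2 and M phase were lower, with medians of −1.47 and −1.98, so the G2 and M phase difference was smaller there.

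Ciliary genes were closer to the early deuterosomal level. Of 35 axoneme genes 16 were lower and none higher (median −0.72), of 26 intraflagellar transport genes 13 were lower (median −0.56), and of 15 centriole maturation genes 11 were lower (median −0.63). Without the library term these counts were 7, 6 and 7. Some ciliary genes had nearly the same level in both populations. Ccdc170 stood at 33.7 and 34 CPM in progenitors II, against 38.4 and 24.6 CPM in early deuterosomal cells (log2 0.11 ± 0.22, adjusted p = 0.74). Rsph4a had 111 and 128 CPM in progenitors II, against 127 and 149 CPM in early deuterosomal cells (log2 −0.19 ± 0.32, adjusted p = 0.703).

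Dnah6 had 66.9 and 70.2 CPM in progenitors II, against 82 and 60.4 CPM in early deuterosomal cells (log2 −0.04 ± 0.29, adjusted p = 0.936). Ttc21a had 30.8 and 34.2 CPM in progenitors II, against 34.9 and 38 CPM in early deuterosomal cells (log2 −0.15 ± 0.23, adjusted p = 0.665). A difference that missed the threshold does not show that the levels are equal, and the SE gives its precision. Other axoneme genes were still far below, among them Dnaaf1, a dynein assembly factor, by −2.30 ± 0.24, adjusted p = 1.29e-07 and Hydin by −1.78 ± 0.28, adjusted p = 0.000311. Cdkn1a stood at 259 and 210.4 CPM in progenitors II, against 284 and 253 CPM in early deuterosomal cells (log2 −0.18 ± 0.22, adjusted p = 0.577).

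**Figure D3:**
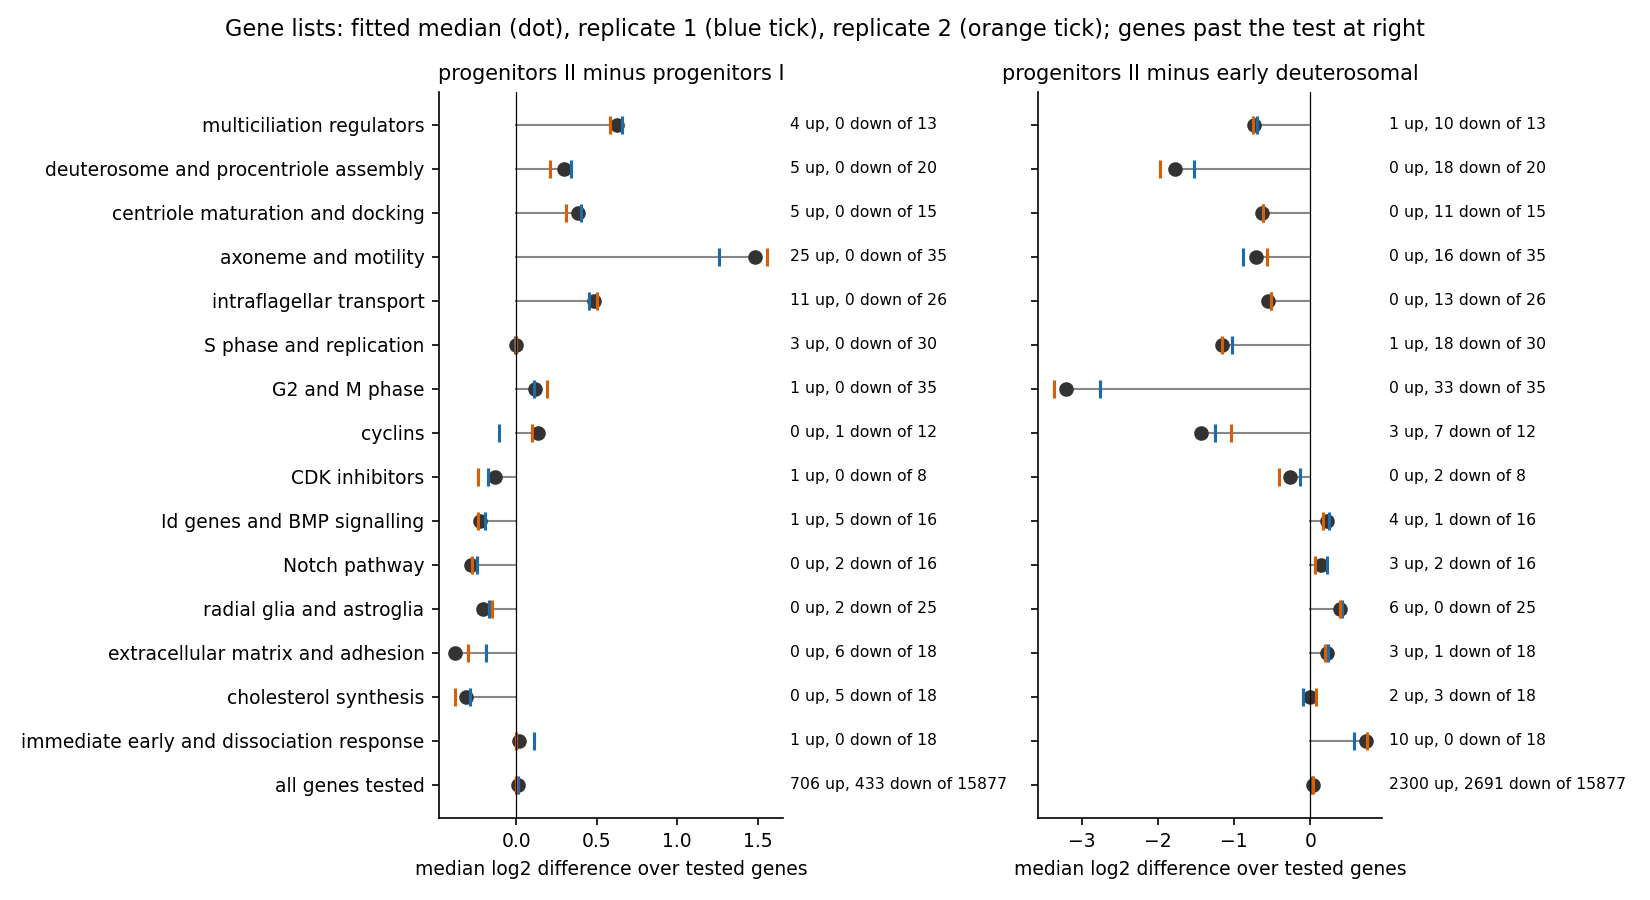
Median log2 difference of progenitors II over progenitors I (left) and over early deuterosomal cells (right) for 15 gene lists and for all genes tested, with the fitted median as a dot, a tick per library, and the number of genes past the test at the right. Axoneme genes lie at 1.48 on the left and −0.72 on the right, while G2 and M phase genes lie at 0.11 and −3.22. The 2 panels share the progenitor II sums and so are not independent.

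Progenitors II also held more of some signalling and glial transcripts than early deuterosomal cells. Ccn2, a matricellular protein known as connective tissue growth factor, stood at 489 and 478 CPM in progenitors II, against 127 and 110.3 CPM in early deuterosomal cells (log2 2.05 ± 0.48, adjusted p = 0.00582). The receptor S1pr3 had 105 and 127 CPM in progenitors II, against 31.2 and 35.3 CPM in early deuterosomal cells (log2 1.82 ± 0.23, adjusted p = 2.21e-05). Pdgfrb, Adra2a, the clock output gene Dbp, Klf15, Timp3, Mtss1, Lrp1b and Fbxo32 completed the 10 largest increases, at 1.39 to 1.64. The calls of Ccn2, Dbp and Timp3 were lost without the library term. Of 18 immediate early and dissociation response genes 10 were higher and none lower (median 0.73), and none passed without the library term, with 1 higher at an unadjusted p under 0.05. Of 25 radial glia genes 6 were higher and none lower (median 0.39), and 1 passed without that term.

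Id3 stood at 270.1 and 236 CPM in progenitors II, against 132 and 84.1 CPM in early deuterosomal cells (log2 1.27 ± 0.29, adjusted p = 0.00433). Id1 had 172 and 143 CPM in progenitors II, against 101 and 76.6 CPM in early deuterosomal cells (log2 0.84 ± 0.22, adjusted p = 0.0086). Neither Id call was kept without the library term. Lrp1b, a lipoprotein receptor relative, stood at 38.1 and 28.2 CPM in progenitors II, against 14.7 and 10.4 CPM in early deuterosomal cells. In progenitors I it had 58.1 and 46.7 CPM, so progenitors II lay in between.

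How far progenitors II had moved was described with genes chosen in one library and measured in the other. The 100 genes with the largest ratio of early deuterosomal cells over progenitors I averaged 20.9 and 23.2 CPM in progenitors II, 9.63 and 9.32 CPM in progenitors I, and 106 and 119 CPM in early deuterosomal cells. Progenitors II thus stood 11.7% and 12.6% of the way on the CPM scale. The 100 genes with the lowest ratio averaged 134 and 153 CPM in progenitors II, 191 and 234 CPM in progenitors I, and 76.2 and 87.6 CPM in early deuterosomal cells, which is 49.6% and 54.9% of the way. The CPM scale weighs abundant genes. The median over single genes of the same position on the log2 scale, a measure chosen after seeing the data, was 24.0% and 28.1% for the genes that are higher in early deuterosomal cells, and 30.5% and 34.9% for those that are lower.

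The summed level of each list gives the position by function. Axoneme genes summed to 2163 and 2109 CPM in progenitors II, 893 and 791 CPM in progenitors I, and 4472 and 3840 CPM in early deuterosomal cells, a position of 35.5% and 43.2%. Intraflagellar transport stood at 37.3% and 43.0%, and centriole maturation at 27.5% and 31.3%. Regulators stood at 15.04% and 13.2%, deuterosome genes at 9.62% and 6.93%, S phase genes at 7.09% and 9.28%, and G2 and M phase genes at 5.36% and 2.81%. Id and BMP genes summed to 1708 and 1743 CPM in progenitors II, 2853 and 2757 CPM in progenitors I, and 1364 and 1418 CPM in early deuterosomal cells, 76.9% and 75.7% of the way. The positions are descriptions with no test, and the list members were chosen with earlier results of these data known.

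Single cells were compared after thinning each to 5000 UMIs, which left out 119 progenitors II cells. The genes that are higher in early deuterosomal cells made up a median of 0.18% and 0.20% of a cell's UMIs in progenitors II, 0.08% and 0.08% in progenitors I, and 0.98% and 1.10% in early deuterosomal cells. The share of progenitors II cells above the 95th percentile of progenitors I was 36.4% in replicate 1 (34.1 to 38.8) and 42.8% in replicate 2 (39.2 to 46.5). None of 1657 and of 736 cells reached the early deuterosomal median. The cells without a name lay in between, with medians of 0.56% and 0.58%, and 6.84% and 1.99% of them reached it. Since the names presumably rest on this expression, a cell with a higher share could carry another name or none. For the genes that are lower in early deuterosomal cells, 33.1% and 32.9% of progenitors II cells were below the 5th percentile of progenitors I, and 5.85% and 5.57% were below the early deuterosomal median. The population therefore overlapped with progenitors I on both sets and reached the early deuterosomal median on the falling set alone.

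Axoneme transcripts were spread over nearly all progenitors II cells. A thinned cell held a mean of 10.7 and 10.2 axoneme UMIs (median 10 in both libraries) in progenitors II, 4.46 and 3.88 in progenitors I, and 21.4 and 18.4 in early deuterosomal cells. The share of cells with 5 or more was 89.5% and 86.3% in progenitors II, 41.7% and 35.1% in progenitors I, and 97.0% and 93.7% in early deuterosomal cells. Cells with none were 0% and 0.408% of progenitors II, and 4.76% and 7.43% of progenitors I. Oligodendrocytes, which build no motile cilia, held a mean of 0.571 and 0.714. Microglia held a mean of 7.85 in replicate 1 with a median of 1, and 0.846 in replicate 2. The cells without a name held 27.8 and 25.2, and multiciliated cells 60.1 and 59.3.

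**Figure D4:**
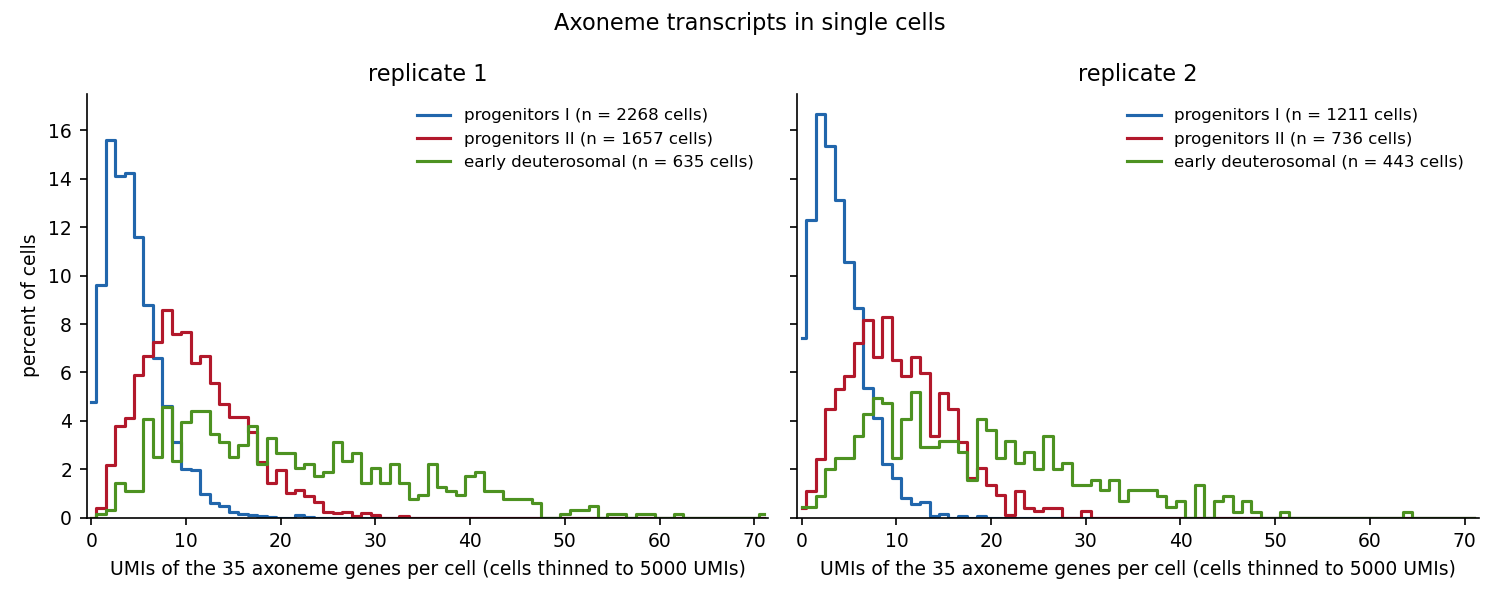
Share of cells, in percent, by the number of UMIs of 35 axoneme genes in a cell thinned to 5000 UMIs, per library, for progenitors I, progenitors II and early deuterosomal cells. Progenitors II form 1 broad peak with a median of 10 in both libraries, between medians of 4 and 3 in progenitors I and of 19 and 16 in early deuterosomal cells, and the 3 distributions overlap.

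Id3 was also compared in cells with several axoneme transcripts. Progenitors II cells with 5 or more axoneme UMIs had 312 and 255 CPM of Id3, against 1018 and 780 CPM in progenitors I cells of the same class. Progenitors I cells with 0 or 1 axoneme UMIs had 1071 and 972 CPM of it. Gmnc in cells with 5 or more stood at 46.5 and 44.7 CPM in progenitors II, against 27.9 and 21.6 CPM in progenitors I. The class has no upper bound, and 886 of 1483 progenitors II cells of replicate 1 held 10 or more, against 157 of 945 progenitors I cells. Among cells with 5 to 9, bounds chosen after values were seen, Id3 stood at 326 and 274 CPM in progenitors II, against 1035 and 781 CPM in progenitors I. Gmnc in these cells had 42.9 and 35.3 CPM in progenitors II, against 27.2 and 20.3 CPM in progenitors I, counts of 128 and 47 UMIs against 107 and 38. These values are descriptions, since the population names presumably rest on these genes as well.

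Gmnc, Deup1 and Trp73 were seen in few single cells at this depth. Gmnc had a UMI in 19.1% (17.2 to 21.0) and 16.8% (14.2 to 19.8) of progenitors II cells, and in 9.04% and 6.19% of progenitors I cells. Microglia, which should lack it, had a UMI of Gmnc in 0.697% of 287 cells and in 0 of 39, which allows up to 7.69%. Their median depth was 13668 and 17034 UMIs before thinning, above that of progenitors II. For Deup1 the share was 13.6% (12.0 to 15.3) and 8.97% (7.003 to 11.3) in progenitors II, against 5.03% (4.16 to 6.01) and 4.29% (3.22 to 5.59) in progenitors I. Microglia had 8.01% (5.15 to 11.8) and 5.13% (0.627 to 17.3) for Deup1. In replicate 2 the interval from 39 microglia spanned that of progenitors II, so the higher share there could not be told apart from this background. Trp73 was seen in 1.03% (0.599 to 1.64) and 1.49% (0.748 to 2.66) of progenitors II cells, against 0.441% (0.212 to 0.809) and 0.495% (0.182 to 1.08) of progenitors I cells. Microglia had 2.09% for Trp73 in replicate 1 and 0 of 39 in replicate 2. Oligodendrocytes had no UMI of Gmnc, Deup1 or Trp73 in 63 and 35 thinned cells, which allows up to 4.76% and 8.57%. The Trp73 shares are therefore not told apart from background at this depth.

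Myb had a UMI in 13.3% and 13.0% of progenitors II cells, against 9.06% and 2.56% of microglia and 74.0% and 76.7% of early deuterosomal cells. Foxj1 was detected in 71.0% and 75.7% of progenitors II cells, 51.4% and 57.9% of progenitors I cells, and 25.4% and 5.13% of microglia. Mcidas was seen in 0.422% and 0.543% of progenitors II cells, against 34.2% and 37.5% of early deuterosomal cells. Within progenitors II, Myb had a UMI in 24.9% (19.4 to 31.1) and 27.3% (17.0 to 39.6) of cells with a Deup1 UMI, against 11.5% (9.91 to 13.3) and 11.6% (9.31 to 14.3) of cells without one. Deup1 had a UMI in 18.7% (14.5 to 23.4) and 13.7% (8.19 to 21.0) of cells with a Gmnc UMI, against 12.4% (10.7 to 14.3) and 8.01% (5.98 to 10.4) of cells without one. The intervals of this pair overlapped in replicate 2. Some other pairs showed little difference in replicate 1. Foxj1 had a UMI in 70.3% and 79.8% of cells with a Gmnc UMI, against 71.1% and 74.8% of cells without one. For Ak7 the shares were 12.0% and 17.7%, against 12.3% and 13.2%. Trp73 went opposite ways in the libraries, at 1.27% and 0.806%, against 0.969% and 1.63%. All intervals cover counting error only, and the part of doublets and of free RNA in these shares was not tested.

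Against the equal-weight average of the other 12 populations, progenitors II stood out by glial and signalling genes that they share with progenitors I. Of 15877 genes 6902 (43.5%) passed the test, 4693 (29.6%) higher and 2209 (13.9%) lower, with a median log2 difference of 0.14. The DESeq2 Wald test gave 4023 higher and 3194 lower. In this comparison 4349 genes had no UMI in at least 1 of the averaged populations, 1217 of the calls are among them, and their fold changes rest on the fit's prior count. Of 25 radial glia and astroglia genes 20 were higher and none lower (median 1.38), as were 13 of 16 Id and BMP genes and 11 of 18 matrix genes. Gmnc differed by 2.82 ± 0.17, adjusted p = 8.7e-12. Since it had no UMI in oligodendrocytes, this fold change too rests in part on the prior count, and the cells without a name were above progenitors II.

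The 10 largest increases against the other populations were Cxcl10, S1pr3, Osmr, Pgm5, Fas, Elobl, Nppc, Pdgfrb, Igfbp5 and Kdr. S1pr3, a sphingosine-1-phosphate receptor, stood at 105 and 127 CPM in progenitors II, against 90.8 and 108 CPM in progenitors I, and differed from the average by 3.55 ± 0.22, adjusted p = 6.13e-09. None of the 10 passed the test against progenitors I, with log2 differences from −0.80 for Elobl to 0.39 for Pgm5. The 10 largest decreases were genes of mitosis and replication, among them Ube2c, Plk1, Hmmr and Pclaf. Gfap differed from the average by 2.67 ± 0.37, adjusted p = 5.98e-05.

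Some genes peaked in progenitors II. In both libraries 155 genes had their highest level there among the 13 populations. The count was 289 in progenitors I, 71 in early deuterosomal cells, 38 in the cells without a name and 994 in oligodendrocytes. All of the 155 averaged at least 30 CPM in progenitors II, so the count does not cover every gene. The lead over the next population was small. It was widest for Gem, a small GTPase that binds calcium channels, at 85.3 and 81.5 CPM in progenitors II, against 59.0 and 62.0 CPM in progenitors I, a ratio of 1.45 and 1.31. Prex2, a Rac exchange factor, followed with ratios of 1.20 and 1.19. The genes whose levels followed Gmnc most closely over the 13 populations were Pgm5, Slc22a4, Omd, Foxo1 and Ndrg1, with mean Pearson correlations of 0.93 to 0.94 over the 2 libraries. These describe 13 populations that share libraries, and no p is given.

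Markers of microglia, neurons and the oligodendrocyte lineage were low in progenitors II, while the mural and fibroblast list was not. Microglial genes summed to 8.45 and 4.91 CPM, neuronal genes to 293 and 401 CPM and oligodendrocyte lineage genes to 211 and 217 CPM, with Mog at 0. Mural and fibroblast genes summed to 2289 and 2392 CPM, nearly all of it Acta2 (2250.2 and 2355 CPM), with Lum and Des at 0. Acta2 was no lower in progenitors I, at 3181 and 3911 CPM, and none of the 3 members of that list that could be tested passed the test between the 2 progenitor populations. Against the average of the other populations, 2 of these 3 members were higher and 1 was lower, with a median log2 difference of 2.11.

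Between the libraries, progenitors II differed little for most genes. Over 11478 genes with at least 100 UMIs the median absolute log2 ratio was 0.196, and 172 genes differed by more than 2-fold. The chemokine gene Ccl2 led in replicate 1, at 23.8 CPM (exact Poisson 95% interval 21.8 to 26.1), against 1.04 CPM (0.518 to 1.86) in replicate 2. Its log2 ratio was 4.29 in progenitors II and 1.03 in progenitors I. Socs3, a feedback inhibitor of cytokine signalling, was lower in replicate 1, at 17.9 CPM (16.1 to 19.8), against 161 CPM (154 to 169) in replicate 2, with a log2 ratio of −3.17 in progenitors II and −3.19 in progenitors I. Gstp1 (2.74) and Ifit3b (2.17) were the next higher in replicate 1, and both have near-identical copies between which reads could be split. With 1 library per substrain, the substrain, the culture and the library cannot be told apart.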

How the data were processed

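Both libraries were made with the droplet-based 10x Genomics 3′ v3 chemistry, and samples were labelled by a cell surface protein strategy, per the labels' protocols. The deposited values are raw counts of unique molecular identifiers (UMIs) per gene and cell, made by the authors with Cell Ranger on mm10, according to the submitters' processing notes, which name versions 3 and 5.0.1. No source used here ties a version to a library or says how population names and cell cycle classes were assigned. The count table carries no row names, so its genes follow the order of the deposited gene table of 32287 genes.

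Counts were summed per library and population over the 13 populations that reached 20 cells in both libraries (26 sums). These were fitted with edgeR 4.0.16 (R 4.3.3), using TMM factors, its default low count filter, population and library as terms, and its robust quasi-likelihood test (12 residual degrees of freedom, two-sided, Benjamini-Hochberg adjustment at 0.05). Each SE is the size of the log2 difference over the square root of F. Library is a block, since the populations of a library come from the same culture. Their deviations from the population means correlated with a median of 0.355 over 78 pairs (lowest −0.145, and 0.106 to 0.612 for pairs with progenitors II). The labels call the samples replicates without naming separate animals, so p-values measure the spread between these libraries only. Of the genes tested, 285, 374 and 4349 had 0 UMIs in a population on one side of the comparison with progenitors I, early deuterosomal cells and the other populations, and 2, 30 and 1217 of these passed the test.

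The text names, in each direction, the 10 genes of largest change that passed the test with at least 30 CPM in the higher side and the same direction in both libraries. Up to 2 list members each way and a set of regulators and cell cycle genes were added. The other genes named, such as the list members behind a count, were chosen after their values were seen. The members and gene lists were chosen with earlier results of these data known. Symbols Dnai1 and Dnai2 were matched to Dnaic1 and Dnaic2. For positions, genes needed 30 CPM in the higher of both populations, and 2 counts were added before ratios. Single cells were thinned to 5000 UMIs. Shares carry exact Clopper-Pearson 95% intervals (scipy 1.17.1), library levels exact Poisson intervals, and a count of 0 allows 3 counts, all for counting error only. No cell was removed beyond the authors' filters, and no doublet caller was run.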

Additional observations from a re-analysis of the deposited data

How the results depend on the processing

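Without the library as a replicate block, progenitors II had 81 genes higher and 8 lower than progenitors I, 512 and 1331 against early deuterosomal cells, and 3083 and 1231 against all other populations. Of the named results 98 kept their side of the threshold without the block, 50 lost it and none changed sign. With 34 cells drawn per population and library, the size of the smallest sum, these counts were 9 and 0 against progenitors I, 72 and 303 against early deuterosomal cells, and 1232 and 313 against the others. Behind the 0 lower genes, 340 of 10369 genes tested were lower at an unadjusted p under 0.05, and the DESeq2 Wald test on all cells called 431 lower. With the progenitor and multiciliated populations only, 1317 genes were higher and 1334 lower than in progenitors I. With cells of the G0 and G1 classes only, 2110 were higher and 2365 lower. That fit was restricted by choice to 3 populations: progenitors I, progenitors II and early deuterosomal cells. Thinning to 5000 UMIs left 1525 genes higher than in early deuterosomal cells. The cause of these shifts was not tested.

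Named genes changed sign in a few settings. With 34 cells, the log2 difference against progenitors I was −0.0035 for Mcidas, −0.015 for Ccdc78, 0.29 for Nsdhl, 0.13 for Insig1 and −1.33 for Mki67. With 34 cells it was 0.18 for Rfx2, 0.085 for Dnah6, 0.34 for Ttc21a and −2.54 for E2f3 against early deuterosomal cells, and 0.18 for Deup1 against all others. Thinning gave −0.13 for Ccdc170 against early deuterosomal cells and 0.35 for Deup1 against all others. The G0 and G1 classes gave −0.082 for Fam166b, and DESeq2 0.036 for Dnah6, both against early deuterosomal cells. Calls against progenitors I that DESeq2 lost include Rsph4a, Rfx2, Cdt1, Olig2, Fn1 and Hes5. That of Ak7 was lost with the G0 and G1 classes. In that setting 2 named results lost their call, while 15 passed the test that had missed it in the main fit. With the progenitor and multiciliated populations only, 8 named results passed that had missed it. Axoneme genes higher than in progenitors I numbered 18 with DESeq2, 2 with 34 cells and 33 after thinning, and none was lower in any of these. The position on the rising genes, 12.2% as the mean of both libraries, was 6.59% with 50 genes, 16.4% with 200, 8.25% at a minimum of 10 CPM, 19.5% in G0 and G1 cells and 26.1% as a log2 median, with 10.6% to 13.5% when each library was left out. That on the falling genes, 52.2%, was 47.7% with 50 genes, 47.2% at 10 CPM, 60.3% in G0 and G1 cells and 32.7% as a log2 median, and 47.6% to 57.2% with a library left out. With a library left out, genes were chosen and measured in the same library, unlike the main positions, so these ranges are no independent check of them. At 2500 UMIs per cell, 33.0% of progenitors II cells were past the progenitors I bound on the rising genes (39.6% at 5000) and 29.1% on the falling genes (33.0% at 5000). With all UMIs kept, the share of cells with a UMI was 35.1% for Gmnc (17.96% thinned), 23.2% for Deup1 (11.3%) and 2.68% for Trp73 (1.26%), so these shares follow depth. Leaving out a library leaves no residual degrees of freedom, so fold changes were recomputed without a test.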
